A study of Mus musculus with 89 samples.

Results

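Lung tissue of ovalbumin (OVA)-sensitised mice was compared after OVA challenge with and without the highest dose of carboxylated copper oxide nanomaterial, CuO COOH at 40 μg/mouse per administration. The members were taken from the sample labels by material, dose and challenge. This gave 3 exposed samples and 8 OVA-challenged controls without nanomaterial, out of 89 samples in the series. The series tested 4 copper oxides at 3 doses in a mouse model of asthma, namely core CuO and forms that carry carboxyl groups (CuO COOH), methylamine groups (CuO NH3) or polyethylene glycol (CuO PEG), and lung mRNA was measured on 2-colour oligonucleotide arrays. All mice were female BALB/c, 6 to 8 weeks old, and all of them, PBS-challenged groups included, had been injected intraperitoneally with OVA and an aluminium/magnesium hydroxide adjuvant. The exposed mice then received OVA together with CuO COOH by oropharyngeal aspiration on 4 consecutive days. The controls received OVA alone, and the PBS-challenged groups received PBS with or without CuO COOH. Lungs were lavaged and collected 24 h after the last administration. RNA was pooled from 2 preparations for every sample, so the spread between samples is that of pools and not of single mice. Doses were equal in mass of whole material and not in copper, and the dose unit, which the labels write as mg, is given here as μg after the study's methods.

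Copper oxide particles release copper ions inside cells, and excess copper is bound by metallothioneins and drives oxidative stress that induces antioxidant genes such as heme oxygenase. In the lung, particle injury is met by epithelial repair programmes, acute phase proteins and chemokines that recruit neutrophils and monocytes. The allergic lung already holds eosinophils, T cells and mucus-producing goblet cells driven by type 2 cytokines.

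Signal was measured on 46 arrays over 6 slides, and between 48.1% and 65.4% of spots were well above background in the 11 samples compared. Exposed replicate 1 stood apart from its group: its best correlation with another exposed sample over all genes was 0.9884, while exposed replicates 2 and 3 correlated at 0.9945. It also shared its array with OVA control replicate 1, and this was the only array that held an exposed sample and an OVA-challenged control. Counts are therefore given with and without exposed replicate 1. The labels were checked against markers. Of 13 goblet cell markers 12 rose in OVA-challenged over PBS-challenged controls, against 3.74% of all genes. The lung surfactant gene Sftpc measured 16.97, 17.14 and 17.30 in the exposed samples and 17.01 to 17.69 (median 17.37) in the controls.

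Of 22911 genes tested, 878 (3.83%) were called, which means an adjusted p of at most 0.05 and a linear fold change over 1.5. The called genes comprised 505 that rose (2.20%) and 373 that fell (1.63%). The counts of list members below are to be read against these shares. The median log2 fold change over all genes was 0.0137. In 446 of the genes that rose all 3 exposed samples lay above all 8 controls, an order found in 10.3% of all genes, and in 345 of those that fell all lay below, an order found in 8.90%. Fold changes come from limma with dye and array as batch terms, whereas the sample values below are log2 intensities with dye, slide and array position removed, so differences of their means can deviate from the fitted fold change. Without exposed replicate 1, or without OVA control replicate 1, 118 genes were called, of which 95 were among the 878. These are the same fit, because with array as a term a sample left alone on its array adds nothing to the comparison. In the fit with array, counts without exposed replicate 1 thus show the loss of the array that held both groups. They do not measure the influence of that sample alone. With slide and array position in place of array, 1011 genes were called with all samples, 549 that rose and 462 that fell. Without exposed replicate 1 this fit called 994, 573 that rose and 421 that fell, an alternative added after seeing the data.

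The acute phase genes stood among the largest rises. Orm1, which encodes the plasma protein alpha-1-acid glycoprotein, measured 11.40, 10.26 and 10.69 in exposed replicates 1 to 3 and 6.83 to 7.41 (median 7.01) in the controls. No exposed sample came near the controls, and the log2 fold change was 3.63 (SE 0.494, adjusted p = 1.09e-04). Its neighbour Orm2 followed with 3.23 (SE 0.475, adjusted p = 2.19e-04), although the 2 genes are so alike that their probes may cross-hybridise. Saa3, a serum amyloid A protein made locally by macrophages and epithelium, measured 16.93, 15.22 and 16.17 against 13.22 to 14.77 (median 13.69), with all exposed samples higher, for a log2 fold change of 2.35 (SE 0.598, adjusted p = 0.019). Of 21 acute phase genes measured, 8 rose and none fell. Their median log2 fold change was 0.764, against 0.0137 over all genes. The 8 were Orm1 3.63, Orm2 3.23, Saa3 2.35, Lcn2 1.81, Saa1 1.75, Hp 1.73, Orm3 1.05 and Hpx 0.93. Lcn2 sequesters bacterial iron carriers, while Hp and Hpx bind free haemoglobin and heme. The list held 1 called gene, and its median was 0.366, without exposed replicate 1. Fitting slide and array position in place of array, 12 rose, and 8 when exposed replicate 1 was also left out.

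Several secreted defence proteins of the airway rose with them. Dmbt1, a mucosal scavenger receptor, measured 8.93, 8.8 and 8.88 against 6.08 to 6.83 (median 6.37) in the controls, of which 4 were well above background, and rose by 2.73 (SE 0.38, adjusted p = 1.36e-04). Retnlb, a resistin-like protein of goblet cells, measured 12.27, 12.16 and 11.61 against 8.71 to 10.07 (median 9.47), with no overlap, and rose by 2.58 (SE 0.355, adjusted p = 1.23e-04). Ltf, the iron-binding protein of neutrophil granules and glands, measured 13.14, 12.99 and 13.63 against 11.04 to 12.25 (median 11.35). All 3 exposed samples exceeded the controls, and Ltf rose by 2.39 (SE 0.493, adjusted p = 0.00468).

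**Figure D1:**
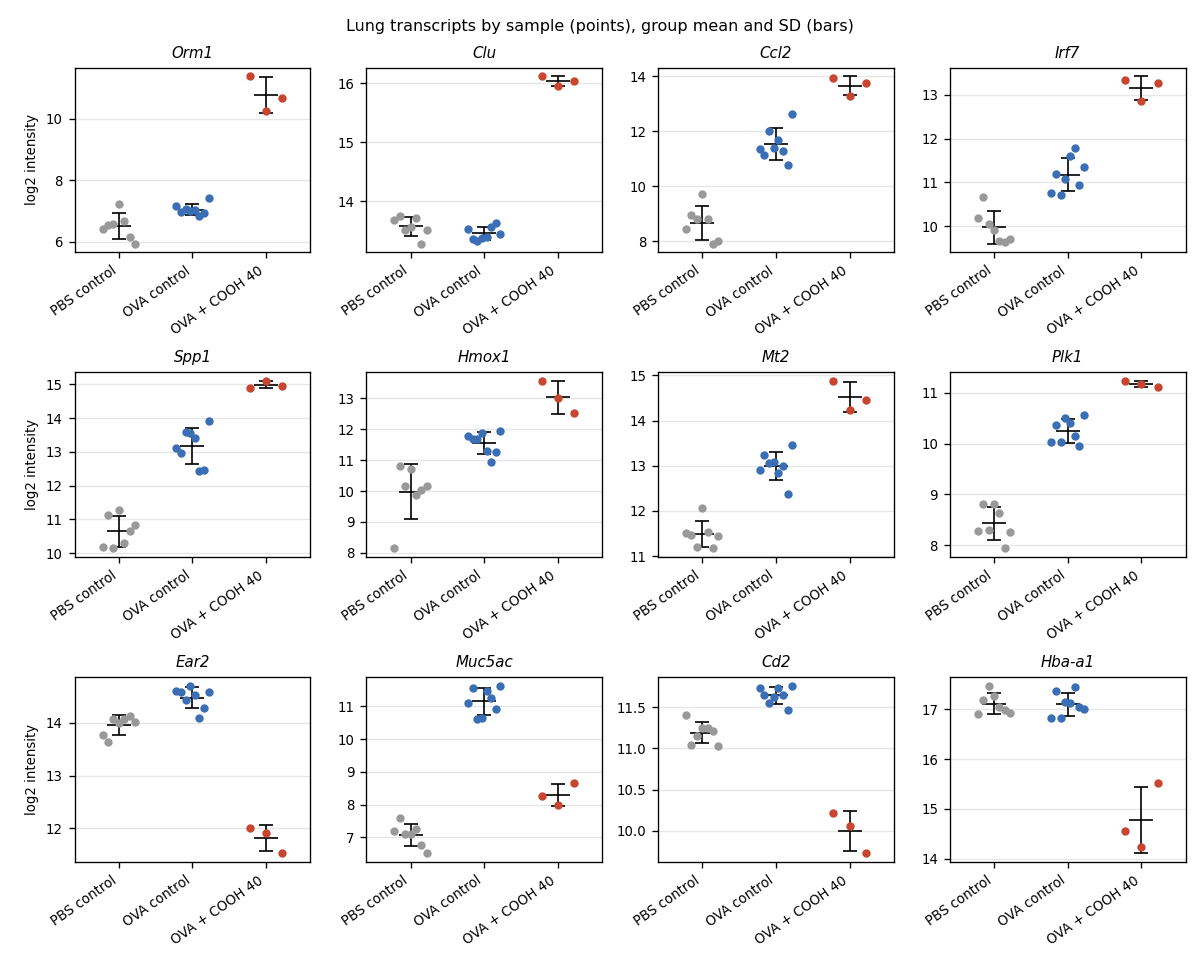
Log2 intensity of 12 genes, with dye, slide and array position removed, in 7 PBS-challenged controls (grey), 8 OVA-challenged controls (blue) and 3 OVA-challenged samples exposed to CuO COOH at 40 μg/mouse (red), where points are samples and bars the group mean and SD on axes that do not start at 0. The exposed samples lie above all OVA-challenged controls in the 8 genes of the upper rows and below them in Ear2, Muc5ac, Cd2 and Hba-a1.

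Among chemokines, several of those that draw monocytes rose. Ccl2, a ligand of the monocyte receptor Ccr2, measured 13.95, 13.28 and 13.77 against 10.76 to 12.62 (median 11.39) in the controls. The exposed samples lay above all controls although the controls spread widely, and the log2 fold change was 2.34 (SE 0.466, adjusted p = 0.00365). Ccl7, another Ccr2 ligand, measured 12.83, 12.19 and 12.50 against 9.4 to 11.55 (median 10.45) and rose by 2.27 (SE 0.47, adjusted p = 0.00483). Of 12 monocyte chemokine genes 4 rose, Ccl12 (1.62) and Ccl3 (1.34) being the others, and 1, Cx3cl1, fell (-0.94). The list's median was 0.292. Of 10 neutrophil attractants and their growth factor none passed the test by limma, and 4 had an unadjusted p under 0.05. Cxcl1 differed by 0.82 (SE 0.378, adjusted p = 0.199) and Cxcl2 by 0.80 (SE 0.246, adjusted p = 0.0503), and Csf3, the granulocyte growth factor, was not well above background in any of the 11 samples. With slide and array position in place of array, 3 of these 10 genes were called, and 0 of 10 when exposed replicate 1 was also left out. Of the 12 monocyte chemokines 5 rose and 1 fell with slide and array position, and 4 rose and 2 fell when exposed replicate 1 was also left out. In the fit with array none was called without that sample, and their median was 0.0616.

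Of the cytokines, few pro-inflammatory and type 2 genes were called, where over all genes 2.20% rose and 1.63% fell. Tnf, a cytokine of activated macrophages, measured 8.4, 7.44 and 7.91 against 6.92 to 7.41 (median 7.07), with the exposed samples on top, and rose by 0.98 (SE 0.253, adjusted p = 0.02). Il11 rose by 0.63 and Il1a fell (-0.70), while Il6 (0.44) and Il1b (0.14) were not called. These 3 were the called genes of 17 pro-inflammatory cytokine genes, whose median was 0.105. Of 18 type 2 cytokine and alarmin genes, Areg, an epithelial growth factor, rose by 1.48 and Gata3, the regulator of T helper type 2 cells, fell (-1.12). The effector cytokine Il13 was not well above background in any of the 11 samples. Il33, an alarmin released by damaged epithelium, differed by -0.31 (SE 0.201, adjusted p = 0.389), Il4 by -0.61 (SE 0.301, adjusted p = 0.239) and the eosinophil attractant Ccl11 by -0.21 (SE 0.246, adjusted p = 0.67), and none of these passed the test. No gene of either list was called without exposed replicate 1, while with slide and array position 3 of the 17 pro-inflammatory genes rose, and 1 rose and 2 fell of the 18 type 2 genes.

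Some genes of the interferon response rose in the exposed allergic lungs. Irf7, a transcription factor that amplifies type I interferon, measured 13.35, 12.85 and 13.28 against 10.72 to 11.78 (median 11.13) in the controls. All exposed samples lay more than 1 log2 unit above the highest control, and the log2 fold change was 2.46 (SE 0.672, adjusted p = 0.0276). Ifi44 measured 10.74, 10.84 and 11.21 against 8.65 to 9.57 (median 8.94) and rose by 2.13 (SE 0.603, adjusted p = 0.033). Rsad2, the antiviral enzyme viperin, measured 9.49, 9.04 and 9.62 against 7.02 to 7.8 (median 7.39) and rose by 1.97 (SE 0.555, adjusted p = 0.0323). Isg15, a ubiquitin-like modifier, measured 14.26, 13.99 and 14.65 against 12.24 to 13.09 (median 12.62), also without overlap, and rose by 1.91 (SE 0.544, adjusted p = 0.0339). These were the 4 called members of 19 measured, yet the list's median was 1.41, with large estimates and large standard errors. In 13 members all exposed samples exceeded all controls, an order found in 10.3% of all genes. Cxcl10, an interferon-induced chemokine, is an example that did not pass, with a log2 difference of 2.06 (SE 0.667, adjusted p = 0.0619). Outside the list, Oasl1 measured 11.85, 11.48 and 11.74 against 8.88 to 9.89 (median 9.45) and rose by 2.62 (SE 0.574, adjusted p = 0.00719), and Slfn4, of myeloid cells, measured 10.51, 10.02 and 10.62 against 7.04 to 7.63 (median 7.35) and rose by 2.77 (SE 0.539, adjusted p = 0.00303). With slide and array position as terms 12 of the 19 rose and 1 fell, and 10 rose and 1 fell when exposed replicate 1 was also left out, while none was called without that sample in the fit with array.

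Promoter windows of 250 bases before the gene's start, from RefSeq on GRCm38.p6, were searched on both strands for the letters GAAANNGAAA, the core of the interferon-stimulated response element. They occurred in 2 of 6 of these genes, Isg15 and Rsad2, and in 978 of 32851 windows (2.98%). In Isg15 3 overlapping matches began 78, 72 and 66 bases before the start, and in Rsad2 1 match lay on the opposite strand, beginning 120 bases before it. No match in Irf7, Ifi44, Oasl1 or Slfn4 says only that these letters are not in the window. Both sequences are shown because they are the promoters, among genes that rose together, that hold the element, whose letters are in capitals.
Isg15 (chr4:156200819-156201068, minus strand): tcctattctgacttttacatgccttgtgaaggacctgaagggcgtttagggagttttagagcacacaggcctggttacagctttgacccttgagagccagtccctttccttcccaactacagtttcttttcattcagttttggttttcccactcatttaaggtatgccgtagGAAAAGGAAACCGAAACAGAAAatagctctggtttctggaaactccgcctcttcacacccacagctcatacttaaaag
Rsad2 (chr12:26456453-26456702, minus strand): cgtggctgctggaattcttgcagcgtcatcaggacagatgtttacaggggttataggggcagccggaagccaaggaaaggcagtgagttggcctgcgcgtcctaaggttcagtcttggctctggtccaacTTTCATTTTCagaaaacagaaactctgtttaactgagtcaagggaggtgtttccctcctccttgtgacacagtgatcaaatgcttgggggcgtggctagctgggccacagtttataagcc

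The metal-binding metallothioneins rose. Mt2 measured 14.88, 14.23 and 14.45 against 12.38 to 13.47 (median 13.02) in the controls, with a gap between the groups, and rose by 1.67 (SE 0.23, adjusted p = 1.23e-04). Mt1 measured 11.59, 11.54 and 11.21 against 10.19 to 10.88 (median 10.60) and rose by 0.95 (SE 0.142, adjusted p = 2.50e-04). Both genes buffer copper and zinc. Of 24 genes of copper and metal handling 5 rose and 1 fell, and the list's median was 0.0427. Over all genes 2.20% rose and 1.63% fell. The zinc and manganese importer Slc39a14 rose by 0.85, and the copper-dependent enzymes Lox and Loxl2, which cross-link collagen, by 1.06 and 0.99. Sod3, the extracellular superoxide dismutase that carries copper and zinc, fell by 0.68. The zinc exporter Slc30a1, another gene that metals induce, differed by -0.39 (SE 0.121, adjusted p = 0.0512) and was not called. The list held 1 called gene without exposed replicate 1. In the fit with slide and array position 6 rose and 1 fell, and 5 rose and none fell when exposed replicate 1 was also left out.

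The metal response element, searched as TGCACNC or TGCGCNC on both strands of the same windows, occurred in both metallothionein promoters and in 7032 of 32851 windows (21.4%). Mt1 held 1 match that began 23 bases before the start and Mt2 held 3, at 223, 128 and 50 bases. Both windows are printed for the metal-responsive genes that rose, with the element in capitals. Matches outside the windows were not looked for in these genes.
Mt1 (chr8:94178839-94179088, plus strand): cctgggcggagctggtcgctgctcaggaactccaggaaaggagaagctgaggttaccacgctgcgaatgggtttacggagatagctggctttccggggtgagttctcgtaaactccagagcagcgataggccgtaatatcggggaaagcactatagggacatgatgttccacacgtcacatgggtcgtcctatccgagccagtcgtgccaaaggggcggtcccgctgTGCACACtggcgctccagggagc
Mt2 (chr8:94172368-94172617, plus strand): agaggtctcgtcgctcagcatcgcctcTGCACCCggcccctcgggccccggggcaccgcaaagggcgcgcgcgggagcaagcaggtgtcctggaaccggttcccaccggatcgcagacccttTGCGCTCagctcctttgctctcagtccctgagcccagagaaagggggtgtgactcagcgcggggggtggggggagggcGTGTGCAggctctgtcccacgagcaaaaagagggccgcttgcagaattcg

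Responses to oxidative and proteotoxic stress were partial. Hmox1, which degrades heme, measured 13.57, 13.01 and 12.52 against 10.94 to 11.93 (median 11.69), with every exposed sample higher, and rose by 1.58 (SE 0.231, adjusted p = 2.07e-04). The ferritin chains Fth1 and Ftl1, which store iron, rose by 1.34 and 0.86, and the glutathione peroxidase Gpx2 by 0.86. Of 25 targets of Nrf2, the antioxidant transcription factor, these 4 rose, and the detoxifying enzymes Gstm1 (-0.74) and Ephx1 (-0.63) fell. The standard target Nqo1 differed by -0.38 (SE 0.17, adjusted p = 0.181). The list's median was 0.364. For this and the stress lists below, 2.20% of all genes rose and 1.63% fell. Hspa1a, the inducible heat shock protein 70, measured 13.11, 12.77 and 13.33 against 10.25 to 11.99 (median 10.81) and rose by 2.41 (SE 0.612, adjusted p = 0.0188), and with the co-chaperone Stip1 (0.86) it made up the 2 called of 19 heat shock genes. Hspa1a has a near-identical copy, Hspa1b, which differed by 1.1 (SE 0.728, adjusted p = 0.407). None of 20 genes of the endoplasmic reticulum and integrated stress response was called by limma, 7 had an unadjusted p under 0.05, and the median was 0.188. Of 19 p53 targets Phlda3 (0.70) and the cell cycle inhibitor Cdkn1a (0.69) rose. Without exposed replicate 1, 1 of the Nrf2 targets and none of the heat shock genes or p53 targets was called, whereas with slide and array position 4 Nrf2 targets rose and 2 fell, and 3 heat shock genes and 2 p53 targets rose.

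Most epithelial injury markers rose. Clu, the secreted chaperone clusterin, measured 16.12, 15.95 and 16.03 against 13.33 to 13.63 (median 13.42) in the controls. The 3 exposed samples lay close together, and the lowest of them far above the highest control, and Clu rose by 2.67 (SE 0.252, adjusted p = 2.38e-06). Sfn, the epithelial protein 14-3-3 sigma, measured 12.39, 12.51 and 12.49 against 10.56 to 10.82 (median 10.63) and rose by 1.76 (SE 0.215, adjusted p = 3.19e-05). Krt7, a keratin of simple epithelium, measured 13.15, 13 and 13.03 against 11.68 to 12.10 (median 11.86), again without overlap, and rose by 1.25 (SE 0.124, adjusted p = 2.40e-06). Of 14 markers of injured alveolar epithelium 9 rose and none fell, with a median of 0.836. Keratins Krt19 (1) and Krt8 (0.81) and the tight junction protein Cldn4 (1.07) were among them. Summed over the list, the level was 17.51 to 17.56 in the exposed samples and 16.38 to 16.57 in the controls. The count was 3 without exposed replicate 1, although the median was 0.81. It was 10 when slide and array position replaced array, and 9 when exposed replicate 1 was also left out.

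Many matrix and repair genes rose too. Spp1, the matrix cytokine osteopontin, measured 14.91, 15.11 and 14.96 against 12.45 to 13.92 (median 13.26), with all exposed samples higher, and rose by 1.78 (SE 0.247, adjusted p = 1.35e-04). Tnc, the wound glycoprotein tenascin C, measured 8.78, 8.8 and 9.21 against 6.57 to 7.18 (median 6.93) and rose by 1.77 (SE 0.198, adjusted p = 1.13e-05). Col1a1, the main chain of fibrillar collagen, measured 13.69, 13.84 and 14.15 against 11.82 to 12.44 (median 12.22) and rose by 1.61 (SE 0.244, adjusted p = 3.09e-04). Of 32 extracellular matrix and repair genes 13 rose and 1 fell, with a median of 0.54. The one that fell, Mmp12, the elastase of macrophages, measured 8.05, 8.27 and 7.35 against 8.08 to 10.13 (median 9.69) and fell by 1.58 with overlapping groups. The inhibitor Timp1 differed by 0.67 (SE 0.43, adjusted p = 0.392) and was not called. Without exposed replicate 1, 6 of the 32 rose and the median was 0.238. When slide and array position replaced array 16 rose, and 14 when that sample was also left out. Igfbp3, a carrier of insulin-like growth factors, measured 9.77, 9.74 and 9.88 against 11.21 to 12.19 (median 11.64) and was among the largest falls (-2.05 (SE 0.21, adjusted p = 3.47e-06)).

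Of 30 genes of the mitotic cell cycle 24 rose and none fell, with a median of 0.694. Plk1, a mitotic kinase, measured 11.24, 11.17 and 11.11 against 9.96 to 10.56 (median 10.26) and rose by 1.04 (SE 0.209, adjusted p = 0.0041). Tpx2 (1.01) and Aurka (0.97) of the spindle, the checkpoint target Cdc20 (0.98) and the topoisomerase Top2a (0.93) also rose. Mki67, the proliferation antigen, measured 11.91, 11.81 and 12.06 against 10.89 to 11.73 (median 11.35), a narrow gap, and rose by 0.66 (SE 0.157, adjusted p = 0.0115). In 26 of the 30 all exposed samples lay above all controls, an order found in 10.3% of all genes. None of the 30 was called without exposed replicate 1, while the median was 0.761. Slide and array position in place of array gave 18 that rose, and 14 when exposed replicate 1 was also left out. Which cells carried these transcripts was not tested.

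Markers of phagocytes recruited from blood were mixed. Of 17 neutrophil markers 5 rose and none fell, with a median of 0.553, where 2.20% of all genes rose. Clec4d, a pattern receptor of myeloid cells, measured 11.37, 11.11 and 11.29 against 8.74 to 9.2 (median 8.92) and rose by 2.25 (SE 0.222, adjusted p = 2.40e-06). The collagenase Mmp8 measured 9.91, 9.82 and 9.79 against 7.48 to 8.28 (median 7.77), also without overlap, and rose by 1.79 (SE 0.294, adjusted p = 6.78e-04), while the abundant neutrophil proteins S100a8 (0.55 (SE 0.486, adjusted p = 0.558)) and S100a9 (0.18 (SE 0.482, adjusted p = 0.874)) were not called. Summed over the list, the level was 16.05 to 16.41 in the exposed samples and 15.74 to 16.09 in the controls. Of 18 markers of monocytes and recruited macrophages 5 rose and 1 fell, with a median of 0.516. Gpnmb, a glycoprotein of lipid-laden macrophages, measured 10.38, 10.61 and 9.9 against 8.3 to 8.79 (median 8.43) and rose by 2.29 (SE 0.428, adjusted p = 0.00221). The high-affinity antibody receptor Fcgr1 rose by 2.06 and the endotoxin co-receptor Cd14 by 1.07. In bulk lung, more or fewer cells of a type and more or less RNA per cell cannot be told apart. Without exposed replicate 1, 1 of the 17 neutrophil markers rose, with a median of 0.168, and none of the 18 monocyte and macrophage markers was called. When slide and array position replaced array 9 neutrophil markers rose and 1 fell, and 7 rose and 1 fell when that sample was also left out.

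Several genes of resident macrophages and of eosinophils fell. Ear2, a ribonuclease of eosinophils and alveolar macrophages, measured 12, 11.92 and 11.53 against 14.09 to 14.70 (median 14.55) in the controls. The exposed samples lay clearly below all controls, and the log2 fold change was -2.45 (SE 0.313, adjusted p = 5.53e-05). Its relatives Ear1 (-2.38), Ear10 (-2.16) and Rnase2a (-2.03) fell as well, but their probes may cross-hybridise, so the 4 are not independent. With Siglecf, a surface lectin of both cell types that fell by 0.79, they were the 5 of 15 eosinophil genes and attractants that fell, and none rose. The granule proteins that define eosinophils, Epx (0.44 (SE 0.239, adjusted p = 0.289)) and Prg2 (0.31 (SE 0.235, adjusted p = 0.475)), were not called. Of 8 eosinophil markers in a separate list only Siglecf fell, and the median was -0.396. Of 16 alveolar macrophage markers 7 fell and none rose, with a median of -0.87. Ear2, Ear1 and Siglecf are among these too, so the lists overlap. Itgax, the integrin CD11c, measured 9.03, 8.83 and 8.71 against 9.87 to 10.50 (median 10.13) and fell by 1.28 (SE 0.177, adjusted p = 1.30e-04). The lipid droplet gene Cidec fell by 1.25. When exposed replicate 1 was left out 3 of these 16 and 3 of the 15 eosinophil genes fell. When slide and array position replaced array 12 and 8 fell, and 13 and 9 when that sample was also left out.

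Chitinase and some mucus genes of the allergic lung fell. Chia1, the acidic chitinase, measured 11.73, 11.88 and 11.31 against 13.43 to 14.75 (median 14.43), with every exposed sample lower, and fell by 2.41 (SE 0.297, adjusted p = 3.46e-05). The chitinase-like proteins Chil3 (-1.83) and Chil4 (-1.36), products of alternatively activated macrophages and epithelium, also fell, and exposed replicate 2 overlapped the controls for Chil3. Muc5ac, the inducible airway mucin, measured 8.26, 7.98 and 8.64 against 10.61 to 11.63 (median 11.17), below all controls, and its log2 fold change was -2.1 (SE 0.564, adjusted p = 0.0254). The mucus component Fcgbp measured 8.83, 8.45 and 8.9 against 10.83 to 11.87 (median 11.37) and the goblet cell regulator Spdef 9.06, 9.1 and 9.52 against 10.19 to 10.85 (median 10.56), for log2 fold changes of -1.95 and -1.23. These were the 3 of 13 goblet cell markers that fell, while Retnlb, also on that list, rose, and the median was -0.889. Clca1, a secreted goblet cell protein, differed by -2.14 (SE 1.27, adjusted p = 0.341) and was not called. Summed over the goblet list, the level was 15.32 to 15.92 in the exposed samples, 17.05 to 18.88 in the OVA-challenged controls and 12.13 to 13.12 in the PBS-challenged controls. None of the 13 fell without exposed replicate 1, and the median was -0.109. Once slide and array position replaced array 9 fell, with a median of -1.17, and 5 when that sample was also left out, with a median of -1.1.

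A number of lymphocyte markers fell. Cd2, an adhesion receptor of T cells, measured 10.21, 10.06 and 9.73 against 11.46 to 11.76 (median 11.65) in the controls. The groups were separated by a wide gap and Cd2 fell by 1.46 (SE 0.14, adjusted p = 2.38e-06). Of 22 T cell markers 10 fell and none rose, with a median of -0.645. Cd6 (-1.29) and the receptor chains Cd3g (-1.17) and Cd3d (-1.07) fell, but the chain Cd3e (-0.38 (SE 0.177, adjusted p = 0.206)) and the co-receptor Cd4 (-0.10 (SE 0.127, adjusted p = 0.713)) were not called. Summed over the list, the level was 13.26 to 13.57 in the exposed samples and 14.12 to 14.51 in the controls. Of 10 natural killer cell markers 3 fell, led by the granzyme Gzma, which measured 11.53, 11.23 and 11.07 against 12.63 to 13.33 (median 12.98) and fell by 1.78 (SE 0.279, adjusted p = 4.38e-04). Of 15 B cell markers 2 fell and of 9 plasma cell markers 5 fell, among them the B cell coactivator Pou2af1 (-1.41) and the antibody-joining chain Jchain (-1.14), while Sdc1, which epithelium also expresses, rose. Of 11 dendritic cell markers 3 fell. Over all genes 1.63% fell. Leaving out exposed replicate 1, 1 T cell, 1 natural killer cell and 1 dendritic cell marker fell and no B cell or plasma cell marker was called. When slide and array position replaced array 14 of 22 T cell, 8 of 15 B cell, 5 of 9 plasma cell, 3 of 10 natural killer cell and 6 of 11 dendritic cell markers fell. When exposed replicate 1 was also left out of that fit, 14 T cell and 10 B cell markers fell.

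Erythrocyte transcripts fell as well. Hbb-bt, a beta-globin chain, measured 12.82, 12.87 and 13.43 against 15.53 to 16.40 (median 15.84) in the controls. Predicted genes aside, it had the largest fall of the called and separated genes, -2.71 (SE 0.367, adjusted p = 1.07e-04). Alas2, the first enzyme of erythroid heme synthesis, measured 8.45, 8.77 and 8.88 against 10.66 to 11.50 (median 11.16) and fell by 2.27 (SE 0.344, adjusted p = 3.09e-04). Of 10 erythrocyte markers 5 fell, and the median was -1.34. Leaving out exposed replicate 1, 3 fell, and 6 did with slide and array position in place of array. The globin genes resemble each other closely and may cross-hybridise, so Hba-a1 (-2.34) and Hba-a2 (-2.3) are not independent of one another. Summed over the list, the level was 15.67 to 16.97 in the exposed samples and 18.2 to 18.89 in the controls, so red cell RNA differed between the groups alongside the lymphocyte markers. Its part in their fall was not tested. Of 18 endothelial markers 3 fell, led by the junction protein Cldn5 (-0.84), while 7 fell with slide and array position and none without exposed replicate 1. None of 9 heart muscle and 6 adipose tissue markers was called by limma or had an unadjusted p under 0.05.

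Single genes of other programmes stood out. Cyp1a1, the target of the aryl hydrocarbon receptor, measured 5.67, 5.49 and 6.06 against 6.76 to 7.44 (median 7.11) and fell by 1.8 (SE 0.202, adjusted p = 1.13e-05), and was well above background in 2 of 3 exposed samples and 6 of 8 controls. The receptor gene Ahr fell by 0.81. Of 17 circadian clock genes Dbp (-1.22) and Cry2 (-0.84) fell, where 1.63% of all genes fell. Of 17 xenobiotic metabolism genes 3 fell, led by Fmo1 (-0.91) and Aox3 (-0.85), and none rose. In both the clock and the xenobiotic list 6 genes fell with slide and array position, and without exposed replicate 1 none was called, with medians of 0.129 for the clock and 0.0705 for the xenobiotic genes against -0.249 and -0.412 with all samples. Colq, which anchors acetylcholinesterase, measured 8.41, 8.22 and 8.35 against 10.33 to 11.21 (median 10.60), below every control, and fell by 2.36 (SE 0.257, adjusted p = 8.36e-06).

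Markers of structural lung cells were read next, against 2.20% of all genes that rose and 1.63% that fell. Of 20 surfactant and lipid metabolism genes 2 rose, the lipid carrier Fabp5 (0.91) and the surfactant collectin Sftpd. Sftpd measured 17, 16.61 and 16.75 against 16.02 to 16.60 (median 16.30), with exposed replicate 2 just above the highest control, and rose by 0.63 (SE 0.145, adjusted p = 0.00966). It was also the 1 of 14 alveolar type 2 markers that rose, while the transcription factor Etv5 fell by 0.75. With slide and array position none of the 14 rose, and with normexp, loess and Aquantile the sign of the Sftpd difference changed. Of 13 alveolar type 1 markers 1 fell, Hopx (-0.64), and of 12 club cell markers 1, Pon1 (-1.47). The fit with slide and array position gave 2 alveolar type 1 markers that rose and none that fell, and 5 club cell markers that fell. No marker of either list was called without exposed replicate 1. The club cell secretoglobin Scgb1a1 differed by -0.17 (SE 0.305, adjusted p = 0.801). Of 14 ciliated cell markers 3 fell, Tppp3 (-0.80) and Sntn (-0.70) among them, although the ciliogenesis factor Foxj1 differed by 0.57 (SE 0.225, adjusted p = 0.126) and was not called. Of 15 fibroblast and smooth muscle markers Des, a muscle filament protein, rose by 0.87 and 2 fell. Pf4, a platelet chemokine, was the 1 of 9 platelet markers that rose (1), and Cma1, a mast cell chymase, the 1 of 9 mast cell markers that fell (-1.04). Of 16 genes of alternatively activated macrophages 2 rose and 3 fell, with a median of -0.417, and the resistin-like Retnla (-0.99 (SE 0.43, adjusted p = 0.173)) and the arginase Arg1 (1.11 (SE 0.438, adjusted p = 0.125)) were not called. Without exposed replicate 1, 1 of these 16 rose and 1 fell. No surfactant, alveolar type 2, ciliated, fibroblast, platelet or mast cell list member was then called, and the ciliated median was 0.331, against -0.142 with all samples. With slide and array position 3 ciliated and 3 mast cell markers fell, and 2 rose and 6 fell of the 16 macrophage genes.

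**Figure D2:**
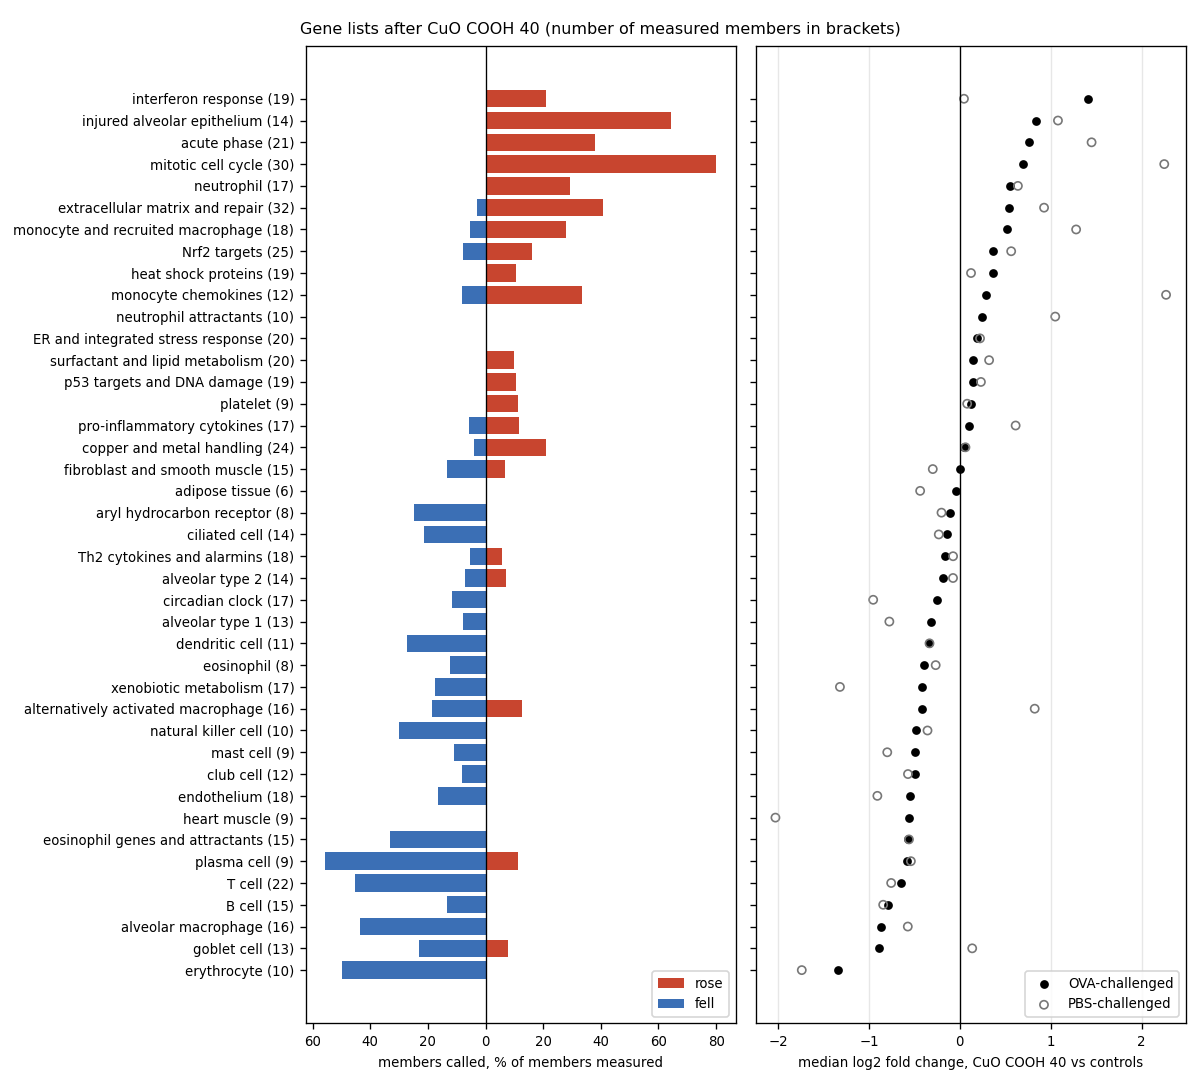
The 41 gene lists in order of their median log2 fold change, with the percent of measured members that rose (red) or fell (blue) in OVA-challenged mice on the left and the median log2 fold change in OVA-challenged (filled) and PBS-challenged mice (open) on the right. The interferon list has the highest median in OVA-challenged mice (1.41) and the erythrocyte list the lowest (-1.34).

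Whether the exposure acted differently in allergic and in non-allergic lung was tested as the difference of its effects in OVA- and PBS-challenged mice, with 3 exposed and 7 control samples in the PBS arm. The difference passed in 261 genes (1.14%), 11 higher (0.0480%) and 250 lower (1.09%) in OVA-challenged mice, and in 257 of the 261 the effect was nearer 0 in OVA-challenged mice. On its own, CuO COOH at 40 μg/mouse called 2368 genes (10.3%) in PBS-challenged mice. Timp1, the inhibitor of matrix proteases, had one of the widest differences, -4.82 (SE 0.701, adjusted p = 5.40e-04). Its sample values showed where the difference lay, at 13.95, 13.69 and 14.08 with exposure against 9.15 to 10.71 in PBS-challenged controls, but 15.06, 14.12 and 14.51 against 13.09 to 14.76 (median 13.90) in OVA-challenged mice. OVA challenge alone had already brought the control level close to that of both exposed groups. Spp1 behaved alike, with 15.03, 14.97 and 14.88 in exposed PBS-challenged mice against 10.14 to 11.28 in their controls, and a difference of effects of -3.77 (SE 0.404, adjusted p = 5.59e-05). Its exposed levels in the PBS arm were near the 14.91, 15.11 and 14.96 of the OVA arm.

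Hmox1 (-3.33 (SE 0.377, adjusted p = 5.59e-05)) and Mt2 (-1.88 (SE 0.375, adjusted p = 0.0108)) also had smaller effects in OVA-challenged mice. For Mt2 the exposed samples of the PBS arm measured 14.43, 14.40 and 14.73, overlapping the 14.88, 14.23 and 14.45 of the OVA arm, whereas PBS-challenged controls ranged from 11.17 to 12.07, below all OVA-challenged controls. The mitotic list showed the same arrangement. In PBS-challenged mice 29 of its 30 genes rose, against 6.06% of all genes, with a median of 2.25, and for 23 of the 30 the effect was lower in OVA-challenged mice. Mki67 measured 11.94, 11.55 and 11.75 in exposed PBS-challenged mice and 8.7 to 9.59 in their controls, a difference of effects of -2.29 (SE 0.256, adjusted p = 5.59e-05). The ion transport genes Fxyd4 (-4.88 (SE 0.716, adjusted p = 5.78e-04)) and Slc26a4 (-4.43 (SE 0.634, adjusted p = 4.31e-04)) had the other widest differences. Of the genes with higher values, Pigt, of glycolipid anchor synthesis, differed by 1.72 (SE 0.327, adjusted p = 0.00746). With slide and position removed, however, its exposed OVA-challenged samples all lay below the highest OVA-challenged controls, 11.71 and 11.22.

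The interferon list stood differently, with a median of 0.0454 under PBS challenge and 1.41 under OVA challenge, although no member passed the test of the difference by limma and 4 of 19 had an unadjusted p under 0.05. Irf7 measured 10.22, 10 and 9.55 in exposed PBS-challenged mice, within or near the 9.63 to 10.67 of their controls, and its difference of effects was 2.38 (SE 1.1, adjusted p = 0.488). Injured epithelium markers had medians of 1.08 and 0.836, T cell markers -0.756 and -0.645 and erythrocyte markers -1.74 and -1.34 in PBS- and OVA-challenged mice. Clu, whose effect differed by -0.56 (95% interval -1.41 to 0.29, adjusted p = 0.766), was not called. The 261 calls ranged from 60, without replicate 1 of the exposed PBS-challenged group, to 317 when single samples were left out, and were 537 with slide and array position in place of array.

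**Figure D3:**
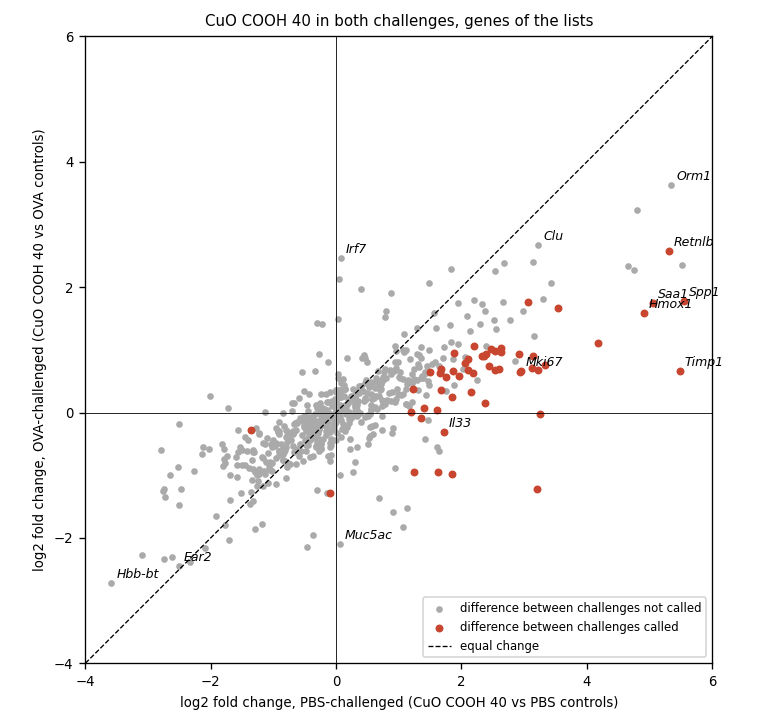
Log2 fold change after CuO COOH at 40 μg/mouse in PBS-challenged (horizontal axis) and OVA-challenged mice (vertical axis) for the listed genes, where each point is a gene, red points are those whose difference between challenges was called and the dashed line marks equal change. Most red points, such as Timp1, Spp1 and Mki67, lie right of the line, and Irf7 lies near 0 on the horizontal axis and above 2 on the vertical one.

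The effect across doses of CuO COOH was read in OVA-challenged mice with the same controls, which the doses share. At 2.5 μg/mouse 8 genes (0.0349%) were called, at 10 μg/mouse 152 (0.663%) and at 40 μg/mouse 878. The median SE was 0.189, 0.134 and 0.137 in the same order, so the doses were not measured with equal precision. The counts at 2.5 and 10 μg/mouse were not repeated under other settings. Orm1 measured 9.2, 8.59 and 8.53 at 2.5, 10.18, 9.54 and 10.76 at 10 and 11.40, 10.26 and 10.69 at 40 μg/mouse. All doses lay above the controls, and the neighbouring doses 10 and 40 overlapped. Mt2 measured 13.23, 12.97 and 13.50, 14.07, 13.39 and 14.27 and 14.88, 14.23 and 14.45, again with overlap between 10 and 40. Irf7 measured 11.94, 11.52 and 11.20, 13.30, 12.62 and 11.74 and 13.35, 12.85 and 13.28, so that the highest dose overlapped the middle one. Krt7, in contrast, measured 12.19, 12 and 11.99 at 2.5 and 12.01, 12.14 and 12.15 at 10, both within or close to the control range, and 13.15, 13 and 13.03 at 40 μg/mouse. Cd2 measured 11.41, 11.56 and 11.49, 11.13, 11.26 and 10.77 and 10.21, 10.06 and 9.73, with the highest dose below both others.

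Between 40 and 10 μg/mouse 4 genes differed (0.0175%), 3 higher (0.0131%) and 1 lower (0.00436%) at the highest dose. Krt7 was higher by 1.18 (SE 0.167, adjusted p = 0.00717), the basement membrane protein Fbln2 by 1.65 (SE 0.264, adjusted p = 0.0154) and the keratin Krt42 by 1.2 (SE 0.195, adjusted p = 0.0154), while Cyp1a1 was lower, -1.78 (SE 0.271, adjusted p = 0.012). For Cyp1a1 the samples measured 6.9, 7.83 and 7.12 at 10 and 5.67, 5.49 and 6.06 at 40 μg/mouse, without overlap. Between 40 and 2.5 μg/mouse 2 genes differed (0.00873%), both higher, the imprinted RNA H19 by 1.48 (SE 0.237, adjusted p = 0.0245) and Pigt by 2.53 (SE 0.326, adjusted p = 0.00162). The sample values of Pigt were 10.70, 10.86 and 10.66 and 10.93, 11.04 and 10.88, so its fitted difference appeared with array as a term and hardly in the values with slide and position removed. Clu measured 14.57, 14.20 and 14.10, 15.09, 14.42 and 15.27 and 16.12, 15.95 and 16.03 at the rising doses, yet its differences of 1.69 (95% interval 0.84 to 2.54, adjusted p = 0.145) and 0.86 (95% interval 0.16 to 1.56, adjusted p = 0.388) were not called. With slide and array position in place of array, 709 and 269 genes differed from 2.5 and from 10 μg/mouse, and leaving out single samples gave 0 to 5 and 0 to 6.

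**Figure D4:**
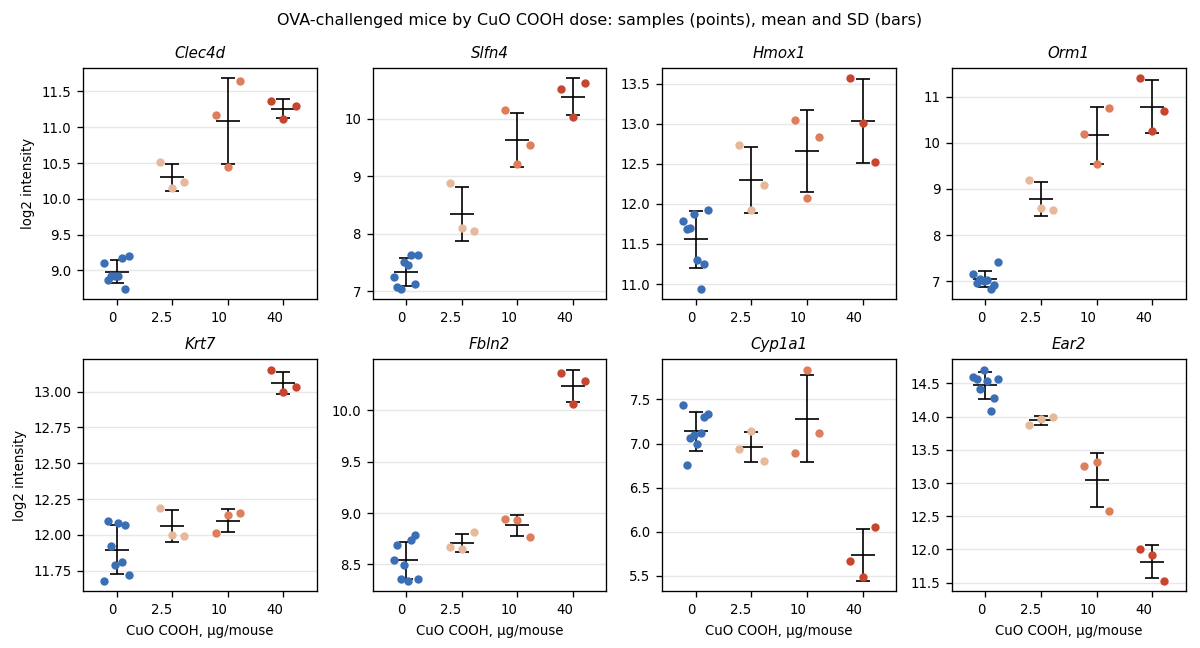
Log2 intensity of 8 genes in OVA-challenged mice by CuO COOH dose in μg/mouse, with 8 samples at 0 and 3 at each other dose, where points are samples and bars the mean and SD on axes that do not start at 0. Orm1 is already above the controls at 2.5 μg/mouse, while Krt7, Fbln2 and Cyp1a1 depart from them mainly at 40 μg/mouse.

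At the matched dose of 40 μg/mouse in OVA-challenged mice, CuO COOH was compared with core CuO, CuO NH3 and CuO PEG, each with 3 samples. These 3 pairs differ in the surface group on the particle, a carboxyl group against none, a methylamine group and polyethylene glycol. By the study's measurements the materials also differ in copper content, copper dissolution and aggregate size. These cannot be told apart from the surface group here. The materials lay on different slides, core CuO and CuO COOH on slides 1 to 3 and CuO NH3 and CuO PEG on slides 4 to 6, so slide and array position were fitted and the link between slides ran through other samples, controls among them. CuO COOH differed from core CuO in 85 genes (0.371%), 66 higher (0.288%) and 19 lower (0.0829%). It differed from CuO NH3 in 103 (0.450%), 94 higher (0.410%) and 9 lower (0.0393%), and from CuO PEG in 197 (0.860%), 105 higher (0.458%) and 92 lower (0.402%). With array as a term, as in the comparison with controls, 1, 0 and 5 genes differed. At an unadjusted p under 0.05 the fits with slide held 2629, 1799 and 3306 genes.

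In the fit with slide and array position, interferon genes separated CuO COOH from core CuO and CuO NH3. With array as a term, none of the differences from these materials called below was called. Irf7 measured 13.35, 12.85 and 13.28 with CuO COOH, 10.96, 11.39 and 11.44 with core CuO and 9.99, 10.46 and 10.69 with CuO NH3, with no overlap between CuO COOH and either. It was higher by 1.9 (95% interval 0.96 to 2.83, adjusted p = 0.0407) than with core CuO and by 2.78 (95% interval 1.72 to 3.84, adjusted p = 0.00271) than with CuO NH3. With CuO PEG it measured 13.08, 11.03 and 12.79, where 1 sample was low and the others lay near CuO COOH, a difference of 0.86 (95% interval -0.20 to 1.92, adjusted p = 0.471). Of the 19 interferon genes 8 were higher than with core CuO, against 0.288% of all genes, and 14 than with CuO NH3, against 0.410%, and none differed from CuO PEG by limma, also at an unadjusted p under 0.05. Ifi44 measured 10.74, 10.84 and 11.21 with CuO COOH, 8.33, 9.15 and 8.92 with core CuO and 7.97, 8.2 and 8.75 with CuO NH3. Slfn4 was higher than with CuO NH3 by 2.65 (95% interval 1.65 to 3.64, adjusted p = 0.00236) and Oasl1 higher than with core CuO by 1.94 (95% interval 1.04 to 2.85, adjusted p = 0.0286).

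Against core CuO the secreted airway proteins Tff2 (-2.36 (95% interval -3.43 to -1.29, adjusted p = 0.026)) and Scgb3a2 (-1.95 (95% interval -2.82 to -1.08, adjusted p = 0.0236)) were lower with CuO COOH. Tff2, a trefoil peptide of mucus, measured 8.58, 8.18 and 9.88 with CuO COOH and 11.13, 10.75 and 11.83 with core CuO, while OVA-challenged controls ranged from 10.95 to 11.98. Against CuO NH3 the stefins Stfa1 (-1.95 (95% interval -2.89 to -1.01, adjusted p = 0.0276)) and Stfa2 (-1.69 (95% interval -2.55 to -0.82, adjusted p = 0.0479)), protease inhibitors of neutrophils, were lower, and as close paralogs they may cross-hybridise. Clu was higher than with CuO NH3 by 1.18 (95% interval 0.66 to 1.7, adjusted p = 0.0112) and than with CuO PEG by 1.48 (95% interval 0.96 to 1.99, adjusted p = 5.41e-04), but its difference from core CuO, 0.83 (95% interval 0.37 to 1.29, adjusted p = 0.0704), was not called. Against CuO PEG the injury markers stood higher in 6 of 14, against 0.458% of all genes, the matrix genes in 4 of 32, and the T cell markers lower in 7 of 22, against 0.402%. Cd2 measured 11.05, 10.97 and 10.84 with CuO PEG and 10.21, 10.06 and 9.73 with CuO COOH, without overlap. Retnlb was higher than with CuO PEG by 2.28 (95% interval 1.33 to 3.24, adjusted p = 0.00469) and Fbln2 by 1.64 (95% interval 1.22 to 2.06, adjusted p = 1.85e-06), while Chia1 (-1.56 (95% interval -2.28 to -0.84, adjusted p = 0.0129)) was lower.

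Other leading genes did not differ between the materials beyond their error. For Orm1 the difference was 0.39 (95% interval -0.50 to 1.28, adjusted p = 0.782) from core CuO, 0.03 (95% interval -0.98 to 1.04, adjusted p = 0.996) from CuO NH3 and 0.87 (95% interval -0.14 to 1.87, adjusted p = 0.44) from CuO PEG. For Ccl2 the intervals were 0.53 (95% interval -0.44 to 1.5, adjusted p = 0.714), -0.54 (95% interval -1.64 to 0.56, adjusted p = 0.874) and -0.00 (95% interval -1.1 to 1.1, adjusted p = 0.999) in the same order. The metallothionein Mt2 differed by -0.37 (95% interval -1 to 0.27, adjusted p = 0.696), -0.07 (95% interval -0.79 to 0.65, adjusted p = 0.982) and 0.69 (95% interval -0.03 to 1.41, adjusted p = 0.375). Leaving out single samples gave 21 to 167 calls against core CuO, the fewest without exposed replicate 1, 50 to 127 against CuO NH3 and 130 to 220 against CuO PEG.

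**Figure D5:**
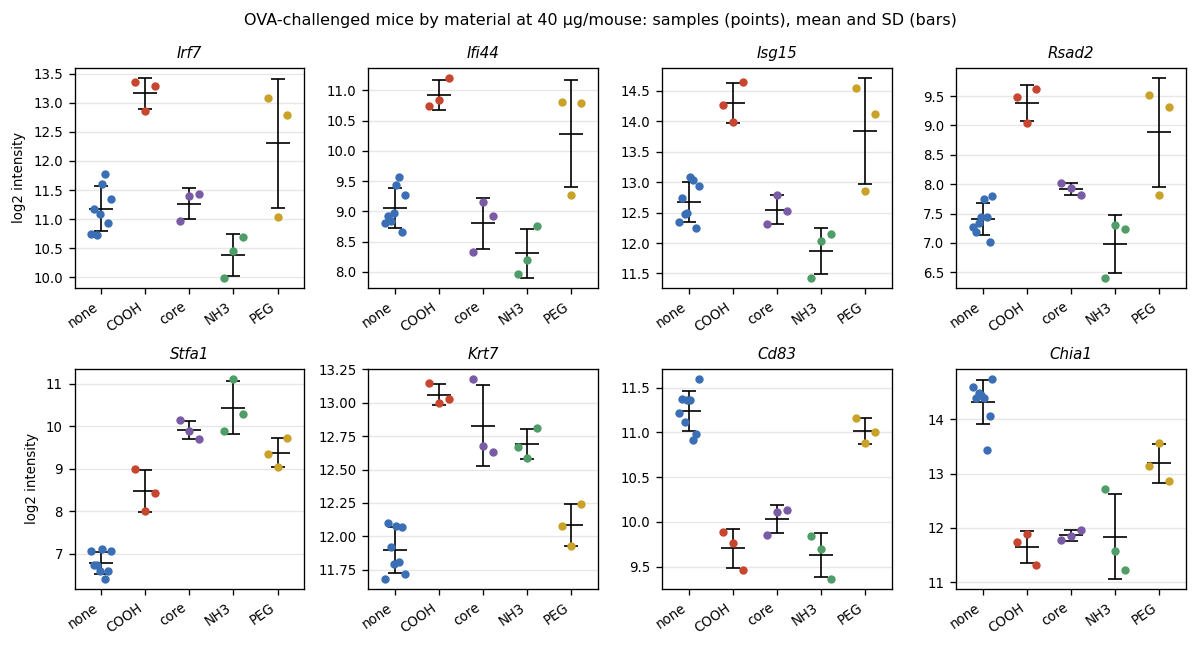
Log2 intensity of 8 genes in OVA-challenged mice without material (8 samples) or with 40 μg/mouse of CuO COOH, core CuO, CuO NH3 or CuO PEG (3 samples each), where points are samples and bars the mean and SD on axes that do not start at 0. Irf7, Ifi44, Isg15 and Rsad2 are high in all 3 CuO COOH samples and in 2 of 3 CuO PEG samples.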

How the data were processed

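Lung RNA pools were hybridised by the authors to 2-colour Agilent 60-mer arrays, 1 sample per dye. The deposited scanner files, made with Agilent Feature Extraction 12.0.2.2 per the file headers, hold median foreground intensity per spot before normalization. The deposited value table of the authors holds log2 quantile-normalized values and served as an alternative. Here the median intensities of 89 samples were taken to log2 and quantile normalized (limma 3.58.1, R 4.3.3), 3671 control spots and outlier spots were left out, and 32994 probes that match 1 gene were averaged over 22911 genes, while 23611 probes had no gene. Linear models with dye and array as terms (dye, slide and array position between materials) over all groups gave moderated tests with Benjamini-Hochberg adjustment. Calls needed an adjusted p of at most 0.05 together with a linear fold change over 1.5. Hybridisation pairs samples in 43 arrays, so array terms leave much of the comparison to samples that share an array.

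Tested on simulated data of 22851 genes, the comparison with controls recovered 192 of 200 genes given a log2 change of 1.5 and called 7 others. The simulated noise was normal, independent and drawn from the same fitted model. The recovery therefore does not cover samples that deviate as a whole, and smaller changes were not simulated. Intervals are 95% intervals of the fit. The number of arrays limits precision. Samples, lists and the rule for named genes (the 12 largest rises and falls among separated calls, the first 3 genes and the up to 4 largest calls of each list, the 3 largest differences in each direction elsewhere) were chosen with earlier results of these data known. Predicted genes were left out of these rankings. Cx3cl1, Ephx1, Gstm1, Hp, Hpx, Orm3, Sdc1, Slc39a14 and Sod3 were named after their values were seen. Alternatives were other batch terms, ComBat, other normalizations, probe filters and leaving out samples. Promoters came from RefSeq (GRCm38.p6).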

Additional observations from a re-analysis of the deposited data

Results flagged for a closer look

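In the 8 OVA-challenged controls 7 of 210 named genes had 1 sample far above the rest, by the gap to its nearest neighbour over the whole range (critical ratio 0.526), and chance gives this in about 1 in 20 groups. Replicate 8 stood out for Cxcr5 (ratio 0.542), Itgae (0.568), Ltf (0.554) and Pf4 (0.636), replicate 7 for Etv5 (0.667), replicate 3 for Pdpn (0.571) and replicate 6 for Pigt (0.563).

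For the genes below the effect of CuO COOH at 40 μg/mouse differed between OVA- and PBS-challenged mice by the test of the difference in limma, given as OVA minus PBS on the log2 scale. It was higher in OVA-challenged mice for Scgb2b2 (2.40), Dcpp2 (1.99) and Pigt (1.72). For Pigt the exposed OVA-challenged samples did not exceed the highest controls in the sample values. Matrix and repair genes were lower, with Timp1 at -4.82, Spp1 at -3.77, Fn1 at -1.61, Tnc at -1.30 and Lox at -1.14. So were the ion transport genes Fxyd4 (-4.88) and Slc26a4 (-4.43) and the stress and metal genes Hmox1 (-3.33), Mt2 (-1.88) and Mt1 (-0.928). Mitotic genes followed with Mki67 at -2.29, Top2a at -1.98, Aurka at -1.66, Plk1 at -1.59, Cdc20 at -1.55, Tpx2 at -1.47 and Ccnb1 at -1.28. Immune and secreted genes were also lower, with Saa1 at -3.30, Arg1 at -3.06, Retnla at -2.84, Retnlb at -2.73, Il33 at -2.03, Ccr2 at -1.44, Itgax at -1.19 and Sftpd at -1.03.

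Among 23611 probes without a gene name, which the comparisons did not use, 488 (2.07%) were called between exposed and control OVA-challenged mice, 221 higher and 267 lower.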

How the results depend on the processing

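With slide and array position in place of array, the comparison with OVA-challenged controls called 1011 genes (668 of them among the 878), and ComBat, loess, the deposited values, probe filters, the brightest probe and controls of the same slides gave 880 to 1080. The difference between challenges (261) became 537 with slide and position, 525 with array as a random block and 482 with dye alone. The steps from 2.5 (2) and 10 μg/mouse (4) became 709 and 269, 606 and 251, and 645 and 232 under these settings, and 57 and 27 with normexp, loess and Aquantile, which used fewer samples. With array as a term, core CuO, CuO NH3 and CuO PEG (85, 103 and 197) gave 1, 0 and 5, and a random block gave 1113 for CuO NH3 and 1199 for CuO PEG. The cause was not tested.

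Replicate number was not a term of the main fit. The deviations of same-numbered exposed and control samples from their group means correlated at -0.138, -0.272 and 0.16. For differently numbered samples the correlations ranged from -0.233 to 0.318. These few values do not settle whether the numbers pair samples, and replicate 1 of both groups shared an array. With the replicate block and dye as the only batch terms, which also drops array (slide and position between materials), 952 genes were called against controls, 501 for the difference between challenges, 698 and 279 for the steps from 2.5 and 10 μg/mouse, and 138, 1358 and 1395 against core CuO, CuO NH3 and CuO PEG. Dye alone gave 1270, 482, 645 and 232 for the first 4 of these, so the block itself moved each of them by less than 1.5 times, and for the materials the block was not tried apart from dropping slide and position.

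Leaving out 1 sample at a time gave 118 to 1100 against controls, the lowest without exposed replicate 1 or OVA control replicate 1, which give the same fit. For the difference it gave 60 to 317, the lowest without replicate 1 of the exposed PBS-challenged group. The ranges were 0 to 5 and 0 to 6 for the dose steps, 21 to 167 against core CuO, 50 to 127 against CuO NH3 and 130 to 220 against CuO PEG. With slide and position, 994 genes were called without exposed replicate 1 and 1061 without OVA control replicate 2, both chosen after seeing the data. A fit of OVA-challenged groups only could not be made with array terms. Of 122 called named genes 92 kept their call under every setting other than leaving out a sample, 28 when any single sample was left out, and 1 changed sign, Sftpd (-0.138, adjusted p = 0.579 by limma, with normexp, loess and Aquantile). Dim spots limit the low genes, as 48.1% to 65.4% of spots were well above background.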
